A study of Mus musculus with 5 samples.

Results

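Gzmb, Gzmc, Gzmd, Gzme, Gzmf and Gzmg are 6 neighbouring mouse genes that encode granzymes, serine proteases stored in the granules of cytotoxic lymphocytes. They were taken by symbol from the deposited gene tables and make up 6 of the 14161 genes listed in any library. The 6 were chosen by their counts in the knockout and wild type libraries, so their values in that comparison are given as a description, with no test. The RNA came from mesenchymal stem cells grown from femur marrow of mice, with 3 Bmal1-knockout libraries and 2 wild type libraries. Bmal1 (symbol Arntl) codes for a partner of CLOCK, and the pair forms the activating arm of the circadian clock; the series asks which genes BMAL1 controls in these cells. All mice were C57BL/6 and 6 to 8 weeks old, and both genotypes were grown in α-MEM with 12% FBS and used at passages 1 to 3. How the knockout was made, and whether it was limited to a cell type, is not stated in the labels. No label says that the libraries came from separate animals or cultures, so the spread between them may be technical. Expected counts summed to 226695, 237088 and 281990 for knockout libraries 1 to 3, and to 243072 and 211623 for wild type libraries 1 and 2.

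Granzymes are made as inactive precursors, activated by the dipeptidyl peptidase cathepsin C, held on the proteoglycan serglycin in secretory granules and delivered into a target cell through pores formed by perforin. Granzyme B cleaves after aspartate and starts apoptosis by cutting caspases and Bid. Granzymes C, D, E, F and G are rodent genes found in activated T cells and in natural killer cells of the pregnant uterus, and their substrates are less well known. Outside lymphocytes, granzymes can also cut matrix proteins.

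The genes lie side by side on chromosome 14, all on the minus strand, each with 5 exons in GENCODE M21. Positions are from RefSeq (GRCm38). In the order of the chromosome they are Gzme (Entrez gene 14942, chr14:56117619-56120625), Gzmd (14941, chr14:56129556-56132603), Gzmg (14944, chr14:56156581-56159579), Gzmf (14943, chr14:56205263-56211407), Gzmc (14940, chr14:56231397-56241647) and Gzmb (14939, chr14:56258836-56262334). The span is 144.7 kb. Exons of Gzmf lie opposite 151 exon bases of the gene model Gm4022, which had no row in any of the 5 libraries; the other members have no exon opposite another gene. The members are copies of one another to unequal degrees. Gzme and Gzmd transcripts were identical at 90.4% of aligned positions, Gzme and Gzmg at 88.1%, and Gzmg and Gzmf at 87.9%. Gzmc matched the other 4 of its neighbours at 69.9% to 71.4%, and Gzmb matched every other member at only 48.1% to 49.9%.

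**Figure D1:**
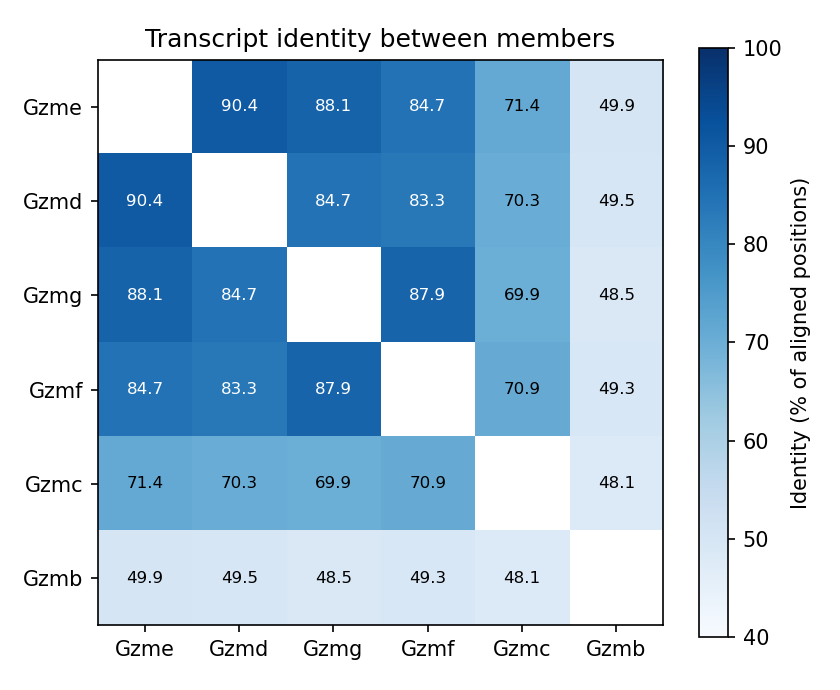
Identity between the GENCODE transcripts of the 6 members, as % of aligned positions, with genes in chromosome order on both axes. Gzme, Gzmd, Gzmg and Gzmf form a block between 83.3% and 90.4%, and Gzmb stands apart below 50%.

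Since a read from a stretch shared by several copies cannot be placed with certainty, the share of such stretches was measured. Of the 50-base windows of each transcript, 20.6% in Gzme, 21.9% in Gzmd, 19.8% in Gzmg, 7.36% in Gzmf and 4.14% in Gzmc were also present, letter for letter, in another gene of the set or in Gzmn, and none were in Gzmb. At 100 bases, 2 windows were shared by Gzmd and Gzmg and none by the other 4. The labels give no read length. The 24 member values above 0, of 30 member and library values, were all whole within 0.005, whereas an expected count can be fractional when a read is divided between genes. Of all listed expected counts, 93.8% to 94.2% were whole too, so this does not show how shared reads were placed. Values of single members from Gzme to Gzmf are therefore less certain than the summed family, and the sum is given beside them.

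The closeness of the copies extends to the DNA before their start sites, shown here because 5 of these 6 neighbours were lower and 1 higher in the knockout libraries. RefSeq promoter windows were found for 6 of 6 members (GRCm38.p6, minus strand). Below are the 150 bases before each start, 5′ to 3′, with capitals for a 20-base run common to 5 genes, for the 8-base palindrome TGACGTCA (a cAMP-response element) and for the AP-1 motif TGANTCA.
Gzme, chr14:56120626-56120775: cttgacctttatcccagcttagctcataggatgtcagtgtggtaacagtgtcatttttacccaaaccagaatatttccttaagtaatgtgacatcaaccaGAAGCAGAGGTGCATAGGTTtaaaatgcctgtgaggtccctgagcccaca
Gzmd, chr14:56132594-56132743: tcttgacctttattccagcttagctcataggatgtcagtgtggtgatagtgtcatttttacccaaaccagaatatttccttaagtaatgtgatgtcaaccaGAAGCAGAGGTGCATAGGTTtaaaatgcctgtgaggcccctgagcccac
Gzmg, chr14:56159580-56159729: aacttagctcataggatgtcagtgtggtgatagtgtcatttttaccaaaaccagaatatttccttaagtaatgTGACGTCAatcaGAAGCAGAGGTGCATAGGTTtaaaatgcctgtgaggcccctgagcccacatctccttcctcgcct
Gzmf, chr14:56211408-56211557: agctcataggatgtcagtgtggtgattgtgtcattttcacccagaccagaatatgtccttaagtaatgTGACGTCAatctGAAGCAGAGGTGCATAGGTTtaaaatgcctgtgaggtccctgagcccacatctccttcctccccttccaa
Gzmc, chr14:56234658-56234807: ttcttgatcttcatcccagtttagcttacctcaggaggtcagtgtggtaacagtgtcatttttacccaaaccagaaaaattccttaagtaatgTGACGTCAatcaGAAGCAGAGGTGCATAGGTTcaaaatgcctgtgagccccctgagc
Gzmb, chr14:56262335-56262484: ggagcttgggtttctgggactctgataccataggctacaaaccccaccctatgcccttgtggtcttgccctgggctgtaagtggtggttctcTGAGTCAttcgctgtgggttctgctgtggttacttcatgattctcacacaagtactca
The run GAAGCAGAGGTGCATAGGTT stood at the same strand in the windows of Gzme, Gzmd, Gzmg, Gzmf and Gzmc, beginning 45 to 70 bases before the start, and in no other of 32544 RefSeq promoter windows. Gzme and Gzmd, whose levels differed in opposite directions, had the closest pair of windows, with 93.4% identity over 300 bases. TGACGTCA, searched after the sequences had been read, was found in Gzmg at -77, Gzmf at -82 and Gzmc at -57, and 1.8% of all windows hold it. TGANTCA was found in Gzmb alone, at -58, against 7.79% of all windows. The canonical E-box CACGTG, to which CLOCK and BMAL1 can bind, was in none of the 6 windows and in 7.17% of all; the looser CANNTG, which includes CACGTG, was in 5 of 6 (all but Gzmg) and in 72.3% of all. The RUNX motif TGTGGT occurred 2 times in each member's window (16.7% of windows hold it). The ROR motif AGGTCA occurred in Gzme, Gzmd and Gzmc (16.2%), and TATAAA in none (13.6%). Both strands and the full 300 bases, 250 before and 50 after the start, were searched. These are letter matches, not measured binding. The Gzmc and Gzmd starts used here lie inside the spans RefSeq gives for these genes. For Gzmd the window begins at 56132594, just short of the end of the gene at 56132603.

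In wild type cells all 6 granzymes were expressed, and in Bmal1-knockout cells 5 of them were lower and Gzme was higher. Every knockout library lay below every wild type library for Gzmb, Gzmc, Gzmd, Gzmf and Gzmg, and above for Gzme. Of all 14161 listed genes, 12.7% had every knockout library below every wild type library and 12.4% had every one above. Among the 3710 tested genes these shares were 21.6% and 21.2%. Levels of a gene across libraries are in CPM, counts per 1000000 of the TMM-scaled total over the tested genes, as mean ± SD. Where a library has 0 counts, the limit (3 counts) is 12.1 to 15.9 CPM. Ratios of summed counts carry 95% Poisson intervals, which cover counting error only.

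Gzme, at the outer end of the cluster, was counted 54, 54 and 46 times in the knockout and 31 and 24 times in wild type. The groups did not overlap, at 234 ± 41.6 CPM (SD, n = 3) and 137 ± 12.8 CPM (SD, n = 2). The knockout to wild type ratio was 1.69 (1.23 to 2.34). Gzme is the 1 member that was higher without Bmal1.

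Gzmd, its nearest neighbour and closest copy, was counted 7, 9 and 10 times in the knockout against 33 and 23 times in wild type. All 3 knockout libraries lay far below both wild type libraries, at 39.0 ± 4.76 CPM (SD, n = 3) against 139 ± 23.2 CPM (SD, n = 2). The level was 3.58-fold lower in the knockout (2.21 to 5.93).

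Gzmg had the widest gap of the members with any knockout count. Its wild type counts were 35 and 27, and its knockout counts 0, 0 and 1. The levels were 1.35 ± 2.34 CPM (SD, n = 3) and 154 ± 14.8 CPM (SD, n = 2), so the gene with the highest wild type mean was close to undetected in the knockout. The fold, 103-fold lower, rests on a single knockout count and its counting interval runs from 17.8 to 4130; without knockout library 3 the knockout count was 0.

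Gzmf had the lowest counts of the family: 4 and 7 in wild type, and 0 in all 3 knockout libraries. The wild type mean was 28.0 ± 13.0 CPM (SD, n = 2). Against 3 counts over the whole knockout group, the level was at least 6.09-fold lower; the Poisson interval, which adds the counting error of wild type, begins at 4.17-fold.

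Gzmc was counted 3, 2 and 8 times in the knockout and 15 times in each wild type library. The means were 18.8 ± 12.0 CPM (SD, n = 3) and 75.1 ± 6.54 CPM (SD, n = 2), 3.83-fold lower in the knockout (1.94 to 8.00). Knockout library 3 was the highest of its group, and without it the difference was 6.27-fold.

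Gzmb, the best known of the family and the least like the others in sequence, gave 2, 0 and 1 knockout counts against 10 and 13 in wild type. The means were 4.55 ± 4.82 CPM (SD, n = 3) and 58.0 ± 15.6 CPM (SD, n = 2), 12.7-fold lower in the knockout (3.85 to 66.2). Without knockout library 1 it was 26.0-fold. As given above, no 50-base window of Gzmb occurs in another member or in Gzmn.

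**Figure D2:**
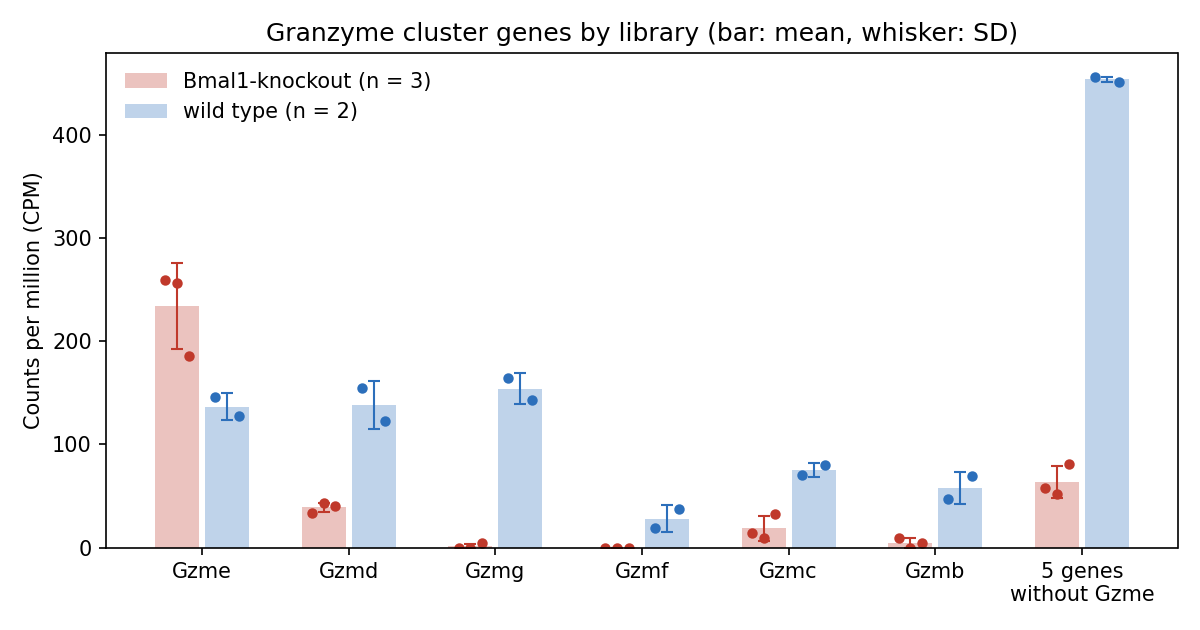
Level of each member in CPM (bars, group mean; whiskers, SD; points, libraries; red, 3 Bmal1-knockout; blue, 2 wild type), with genes in chromosome order and the sum of the 5 genes other than Gzme at the right. Gzme is the only member whose knockout points lie above the wild type points, and the sum of the other 5 was 63.6 CPM against 454 CPM.

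Summed over the 6 genes, the knockout counts were 66, 65 and 66 and the wild type counts 128 and 109. The sum, 298 ± 26.9 CPM (SD, n = 3) against 590 ± 15.6 CPM (SD, n = 2), gave a ratio of 0.501 (0.412 to 0.607). The family as a whole was thus lower by less than any of its 5 lower members. Without Gzme, the counts were 12, 11 and 20 against 97 and 85. The 5 genes then summed to 63.6 ± 15.2 CPM (SD, n = 3) and 454 ± 2.79 CPM (SD, n = 2), 7.03-fold lower in the knockout, a ratio of 0.142 (0.0996 to 0.199).

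Compared per length, in the deposited FPKM, the wild type cells held 3 members at like levels. Gzmg was at 143 and 127 FPKM, Gzmd at 135 and 108, and Gzme at 129 and 115, ranges that overlap. Gzmc followed at 61.1 and 70.3 FPKM. Gzmb, at 25.6 and 38.3, and Gzmf, at 16.5 and 33.1, overlapped each other and lay below Gzmc. In the knockout the order was another. Gzme stood first at 235, 222 and 158 FPKM, and Gzmd second at 30.0, 36.4 and 33.8. Gzmc had 12.8, 8.03 and 26.9 FPKM, below Gzmd in each library. Gzmb (5.36, 0 and 2.11) and Gzmg (0, 0 and 3.36) overlapped, and Gzmf was at 0 in all 3. Gzme ranked 206, 195 and 304 among the listed genes of the knockout libraries and 376 and 428 in wild type, while Gzmg, which ranked 333 and 387 in wild type, ranked 7224 in the only knockout library with a count.

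The make-up of the family differed accordingly. Of the family's counts, Gzme held 81.8%, 83.1% and 69.7% in the knockout and 24.2% and 22.0% in wild type. The exact binomial 95% intervals of single libraries, which cover counting error only, ran from 57.1% to 91.2% in the knockout and from 14.6% to 32.6% in wild type. Gzmg held 27.3% and 24.8% in wild type and 0, 0 and 1.52% in the knockout. The same shares by FPKM were 83.0%, 83.3% and 70.5% against 25.3% and 23.4% for Gzme.

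**Figure D3:**
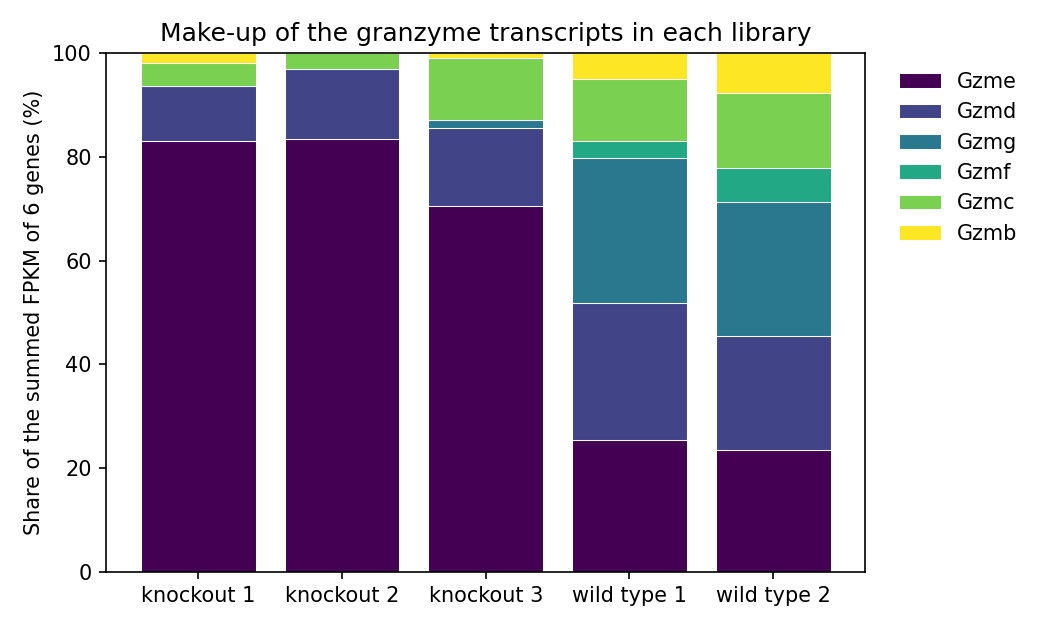
Share of each member in the summed FPKM of the 6 genes (vertical axis, %), 1 stacked bar per library. Gzme fills 70.5% to 83.3% of the 3 knockout bars and 23.4% to 25.3% of the 2 wild type bars, and Gzmg, over 25% of each wild type bar, is close to absent from the knockout bars.

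Along the chromosome the ratio did not follow distance in order. Gzmg and Gzmf, in the middle of the cluster, had 1 knockout count between them, while the members on both sides of that pair, Gzmd and Gzmc, kept 26 and 13. The 8 tested genes nearest to the cluster, 4 on each side, were then examined, since they were not used to choose the members. None passed edgeR's quasi-likelihood test with Benjamini-Hochberg adjustment over all 3710 tested genes, of which 8.19% were called higher and 8.14% lower, or 16.3% in all. Gm16973 was the 1 of 8 with an unadjusted p under 0.05 (log2 fold change 0.73, adjusted p = 0.155), and DESeq2 and limma voom called 0 of 8. On the Gzme side, Sdr39u1 (217.3 kb away) had a log2 fold change of -0.26 and Khnyn, a ribonuclease gene, 0.59. Gmpr2 had 0.30 and the telomere gene Tinf2 0.09. On the Gzmb side, Mphosph8 (405.9 kb away) had -0.07. Much farther off, the Hippo kinase gene Lats2 (1427.3 kb away) had 0.59 and Zdhhc20 (1570.4 kb away) -0.35. These genes lie outside the cluster by more than its own length.

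**Figure D4:**
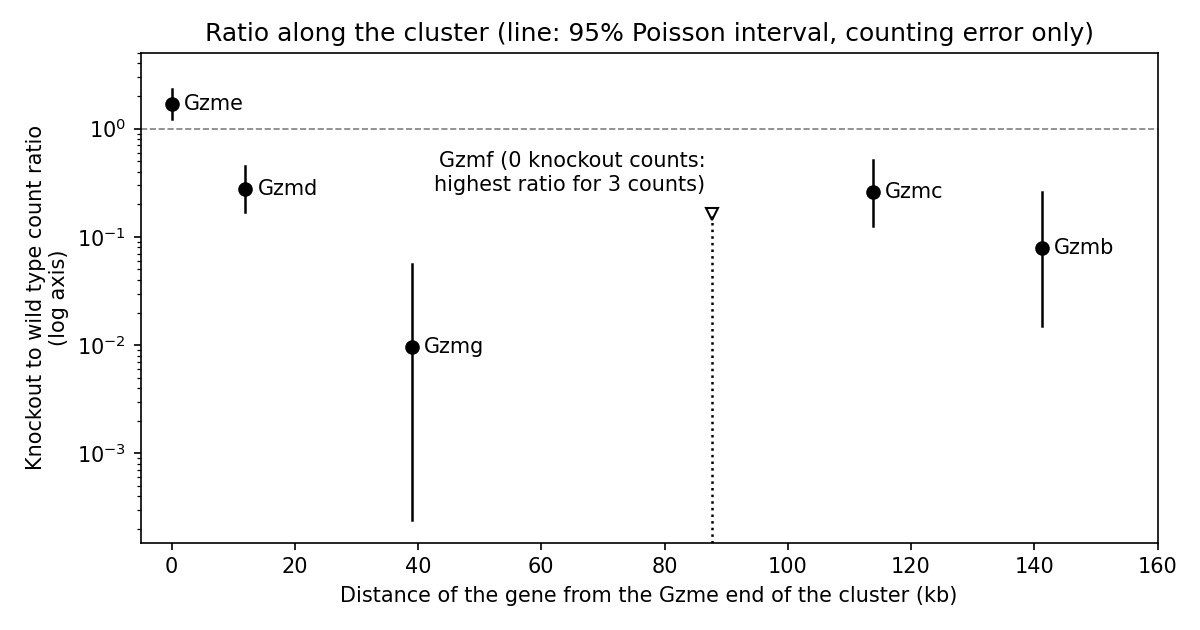
Knockout to wild type count ratio (vertical log axis) of each member against its distance from the Gzme end of the cluster in kb, with 95% Poisson intervals for counting error; the triangle gives the highest ratio that 3 counts over the knockout group allow for Gzmf. Gzme lies above 1 and the 5 others below, from 0.280 for Gzmd to 0.00972 for Gzmg.

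Near the members lie relatives of the same protease family: the granzyme gene Gzmn, mast cell proteases, cathepsin G and chymases. Of 10 such genes, 6 were listed and none had enough counts to test. Ctsg (cathepsin G, a neutrophil protease) had 0, 0 and 0 counts against 0 and 3, and Mcpt2 had 3 counts in wild type library 1 alone. Mcpt8, a basophil protease, had 0, 1 and 1 against 0 and 0, Mcpt-ps1 0, 0 and 1 against 0 and 1, Cma1 0, 0 and 0 against 2 and 0, and Cma2 1, 1 and 0 against 0 and 0. Gzmn, Mcpt1, Mcpt4 and Mcpt9 were at 0. No neighbour of this kind exceeded 3 counts over all 5 libraries, while each of the 6 granzymes did. Granzyme genes elsewhere in the genome were at the same low level: Gzma had 2, 0 and 0 counts against 1 and 0, Gzmm 0, 0 and 0 against 0 and 1, and Gzmk was at 0.

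The other genes of the granule pathway did not move as one. Of 20 granule and delivery genes, 17 were listed, 7 were tested, 2 fell (8.14% of all tested genes did) and none rose, with a median log2 fold change of -0.14 against 0.01 over all tested genes. Prf1, which encodes perforin, had 5 and 12 counts in wild type and 0 in all 3 knockout libraries. Against 3 counts over the knockout group it was at least 9.41-fold lower; the Poisson interval, which adds the counting error of wild type, begins at 6.85-fold. Prf1 was too low for the filter of the test; without a filter on low counts its edgeR quasi-likelihood adjusted p, by Benjamini-Hochberg, was 0.000149, and DESeq2 gave an unadjusted p of 0.00021 and no adjusted one.

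Srgn, the granule proteoglycan serglycin, had 2, 13 and 15 knockout counts against 27 and 15. It fell, with a log2 fold change of -1.21 (SE 0.39, edgeR quasi-likelihood adjusted p = 0.0170), but knockout library 3 and wild type library 2 were equal in counts. The call was lost without knockout library 1 (-0.75, adjusted p = 0.216) and without wild type library 1 (-0.84, adjusted p = 0.408). Lamp1, a membrane protein of lysosomes and lytic granules, fell by 0.43 on the log2 scale (SE 0.14, adjusted p = 0.0179); its exons lie opposite 249 bases of Grtp1, and the call was lost without any 1 of knockout libraries 2 and 3 and wild type libraries 1 and 2. DESeq2 called neither. Ctsc, the activator of granzyme precursors, did not pass (-0.39, adjusted p = 0.0890).

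Some serpins inhibit granzymes, and Serpinb9 of clade B blocks granzyme B. Of 18 granzyme-inhibiting and clade B serpins, a list that also holds Serpina3n, Serpina3g and Serpina3f, 11 were listed and 1 was tested. Serpinb6a had a log2 fold change of -0.05 and 0 were called by edgeR's quasi-likelihood test, DESeq2 or limma voom, with 0 at an unadjusted p under 0.05. Serpinb9 had 6, 10 and 10 knockout counts against 8 and 6, so its groups overlapped. Serpinb2, a plasminogen activator inhibitor, had 2, 1 and 3 counts against 18 and 6; it was below the filter, and without one edgeR called it lower. The summed level of the list was 259 to 288 CPM in the knockout and 330 to 399 CPM in wild type.

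Granzyme genes are switched on by cytokine receptors, RUNX and T-box factors, AP-1 and Notch. Of 32 such regulators, 31 were listed and 14 tested; 3 fell, where 8.14% of all tested genes did, none rose, and the median log2 fold change was -0.27. Fos, a subunit of AP-1, had 5, 9 and 6 knockout counts against 25 and 28. It fell by 2.12 on the log2 scale (SE 0.40, edgeR quasi-likelihood adjusted p = 3.9e-06) and passed in all 11 alternatives. Junb, its partner, had 12, 15 and 15 counts against 25 and 30 and fell by 1.12 (SE 0.35, adjusted p = 0.0119); leaving out wild type library 2 (adjusted p = 0.256), DESeq2 (0.0985), no filter on low counts (0.0557) or the replicate block (0.0556) ended the call. Notch1 fell by 0.95 (adjusted p = 0.0468), was called in 2 of the 11 alternatives, and has 1389 exon bases opposite another gene. Jun and Fosl2, further AP-1 genes of the list, had overlapping groups and did not pass (log2 fold changes -0.33 and -0.20). Jun has 232 exon bases opposite Junos. Ikzf1, a lymphoid factor, did not pass (1, 3 and 7 counts against 11 and 11, adjusted p = 0.106). Runx3, a driver of cytotoxic genes, had 3, 5 and 0 counts against 9 and 11, too few to test. Tbx21, the T-box factor of cytotoxic lymphocytes, had 1 count in all, and Eomes was at 0.

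The cells that usually hold granzymes were next checked by their markers. Of 29 T and NK cell markers, 15 were at 0 in every library, among them Cd3d, Cd3e, Cd3g, Cd2, Lck and Zap70, the receptor and kinase genes that define T cells. Of the rest, 2 were tested and 0 passed edgeR's quasi-likelihood test, DESeq2 or limma voom, with 1 at an unadjusted p under 0.05; without a filter on low counts edgeR called Prf1 alone. Cd247, the CD3 zeta chain, stood at a log2 fold change of -0.48 (adjusted p = 0.0526) and 3007 exon bases opposite Pou2f1; Ccl5, a chemokine, had -0.58 (adjusted p = 0.270). The list summed to 425 to 461 CPM in the knockout and 634 to 707 CPM in wild type. Il2rb, the shared IL-2 and IL-15 receptor chain, had 0, 0 and 1 counts against 2 and 2, and Cd8a had 3, 3 and 6 against 5 and 5. In bulk RNA, fewer cells of a type and less RNA per cell cannot be told apart, and the part of such cells in the granzyme values was not tested.

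Markers of mast cells, basophils and neutrophils had few counts. None of 12 mast cell and basophil markers had more than 3 counts over the 5 libraries. The 13 neutrophil genes summed to 33.3 to 80.9 CPM in the knockout and 94.0 to 122 CPM in wild type; Mmp8, a collagenase and the 1 tested, did not pass (-1.12, adjusted p = 0.145). Of 8 genes of plasmacytoid dendritic cells, which can express Gzmb, 2 were tested and none passed: Bst2 had -0.59 (adjusted p = 0.0939) and Tcf4 0.11, and Bst2 passed once knockout library 1 was left out. The list summed to 227 to 317 CPM in the knockout and 356 to 376 CPM in wild type, most of it from Bst2 and Tcf4. Siglech, Spib and Klk1 were at 0 in every library, and Ccr9 had 1, 1 and 1 knockout counts against 6 and 5.

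The label of mesenchymal stem cells was checked the same way. All 20 stromal markers were listed; of 14 tested, 8 rose (8.19% of all tested genes did) and 1 fell, with a median log2 fold change of 1.05 against 0.01 over all tested genes. Acta2, smooth muscle actin, rose by 2.06 (SE 0.16) and the fibrillar collagen gene Col3a1 by 1.38 (SE 0.11); the surface receptor gene Cd44 fell by 0.99 (SE 0.26, adjusted p = 0.00240), but not when wild type library 2 was left out. All 20 macrophage markers were listed too, so the cultures of both genotypes held macrophage transcripts. Of 17 tested, 8 fell (8.14% of all tested genes did) and none rose, with a median of -0.63, though 3 fell without wild type library 2, 5 without knockout library 2, and 4 by DESeq2. Lyz2, lysozyme, fell by 0.67 (SE 0.10, adjusted p = 1.8e-10) and Ctss, cathepsin S, by 0.86 (SE 0.13, adjusted p = 3.0e-09). The stromal list summed to 14586 to 15705 CPM in the knockout and 5841 to 5877 CPM in wild type, and the macrophage list to 10211 to 11473 CPM and 16652 to 16927 CPM.

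Set on one scale, with the wild type mean as 100%, the 6 granzymes together stood at 53.7%, 52.3% and 45.2% in the knockout libraries. The 5 other than Gzme stood at 12.7%, 11.5% and 17.8%, and Prf1 at 0%. Macrophage markers stood at 68.3%, 60.8% and 63.6%, and T and NK cell markers at 67.3%, 68.8% and 63.4%. Cd247 and Ccl5 gave most of the latter sum; the other 12 listed T and NK genes, Prf1 included, stood at 50.7%, 37.6% and 49.8%. Stromal markers summed to 268%, 252% and 249%, carried by 5 matrix and actin genes, Col3a1, Col1a2, Sparc, Col1a1 and Acta2; the other 15 summed to 144%, 147% and 151%. Pdgfra and Ly6a, surface markers of stromal progenitors, did not pass (log2 fold changes -0.34 and -0.22), and Pdgfrb, Eng, Nt5e, Thy1 and Lepr had overlapping groups. The part of a shift between stromal and macrophage cells in the granzyme values was not tested.

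**Figure D5:**
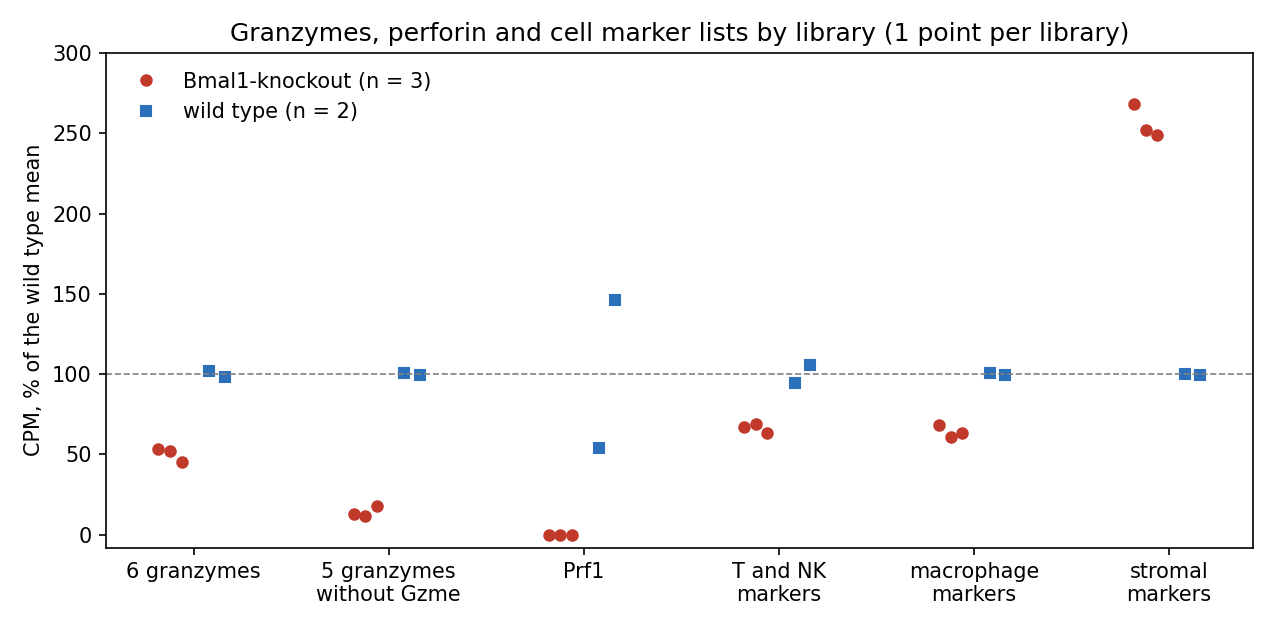
CPM of the granzymes, perforin and 3 marker lists as % of the wild type mean (dashed line at 100), 1 point per library. The 5 granzymes other than Gzme lie at 11.5% to 17.8% in the knockout, the macrophage markers at 60.8% to 68.3%, the T and NK markers (mostly Cd247 and Ccl5) at 63.4% to 68.8% and the stromal markers (mostly 5 matrix and actin genes) at 249% to 268%.

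Tested genes were then ranked by how near they lay to the summed family in pattern over the 5 libraries. The members and genes with gene-model names (Gm, Rik, LOC or an identifier alone) were left out. The nearest were Mpeg1 (perforin-2, a pore-forming protein of macrophages), March1, Slc43a2, Tgm2 (transglutaminase 2), Ctsl (cathepsin L), Atp5h, Mgst1 and Usp35. The measure was the root mean square difference between mean-centred log2 CPM profiles, 0.065 for Mpeg1 and 0.083 for Usp35, the last of the 8. Mpeg1 had 157, 152 and 165 knockout counts against 324 and 243. Such a likeness over 5 libraries of 2 groups is mostly the size of the group difference, which lay between -0.98 and -1.30 on the log2 scale for these 8 genes. March1, Slc43a2, Tgm2 and Ctsl have 546 to 1742 exon bases opposite other genes.

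Proteins that granzymes are known to cut were listed as the last step of the pathway. Of 24 genes listed as extracellular, junction or surface substrates, 12 were tested, 6 rose (8.19% of all tested genes did) and 1 fell. The median log2 fold change was 0.80. Bgn, the matrix proteoglycan biglycan, stood at 908 ± 72.2 CPM (SD, n = 3) in the knockout and 377 ± 15.2 CPM (SD, n = 2) in wild type, and rose by 1.26 (SE 0.16, adjusted p = 8.9e-14). Fn1, fibronectin, rose by 0.89 (SE 0.12, adjusted p = 8.8e-12). The 1 that fell was Notch1, given above. DESeq2 called 3 of these higher, and 4 rose without wild type library 1 or 2. Of the 6 that rose, Bgn, Fn1, Fbn1, Lama5 and Lamb1 are transcripts of matrix genes, and several stromal markers rose with them. Tjp1, a junction gene, passed narrowly (edgeR quasi-likelihood adjusted p = 0.0481). The call was lost with limma voom (adjusted p = 0.315) and without a filter on low counts (edgeR quasi-likelihood adjusted p = 0.0772). By the same edgeR test it was also lost with the replicate block (0.0847) and without knockout library 1 (0.0854) or 2 (0.0688). DESeq2 gave no adjusted p for Tjp1.

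Of 20 intracellular substrates, 9 were tested, 3 rose and 2 fell (8.19% and 8.14% of all tested genes did), and the median, 0.02, was close to that of all tested genes (0.51 without wild type library 1). Hsp90ab1, a chaperone, rose by 0.42 (adjusted p = 0.0273), Lmna, lamin A, by 1.01 (adjusted p = 0.0314), and Tuba1a, a tubulin, by 0.74 (adjusted p = 0.0443). Each of these 3 calls was lost with DESeq2, without a filter on low counts, without knockout library 2 and without wild type library 1. Mcl1, which holds back apoptosis, fell by 0.90 (SE 0.19, adjusted p = 6.0e-05). Numa1, a spindle protein, fell by 1.09 (SE 0.31, adjusted p = 0.00580), a call lost without knockout library 1 (5 counts there), without wild type library 1 and with DESeq2 (adjusted p = 0.455).

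Because Gzmd to Gzmg are also known from the pregnant uterus, other rodent gene families copied in tandem and expressed in the placenta were listed beside them. Of 29 such genes, 6 were listed and 2 tested. Psg17, a pregnancy-specific glycoprotein, had 194, 222 and 284 knockout counts against 28 and 42. It rose by 2.58 (SE 0.18, edgeR quasi-likelihood adjusted p = 6.0e-43) and was the 1 of 2 tested that did, where 8.19% of all tested genes rose. The list was made with earlier results of these data known. Psg16 did not pass (-0.09). The other 23 genes were at 0.

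The deletion itself could not be checked at this depth. Arntl (Entrez gene 11865, chromosome 7) had 4, 1 and 2 knockout counts against 5 and 0, a ratio of 0.843 (0.230 to 3.37), and the labels do not say which part of the gene was removed. Of 22 core clock genes, 20 were listed and 6 tested, and 0 passed edgeR's quasi-likelihood test, DESeq2 or limma voom, with 0 at an unadjusted p under 0.05. Dbp, a direct target of CLOCK and BMAL1, stood at a log2 fold change of -0.66 (adjusted p = 0.357) and Clock -0.35 (adjusted p = 0.442). The genotype of each library therefore rests on its label.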

How the data were processed

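For each library the authors deposited a table of genes with an expected count and an FPKM, per the file headers. Per the submitters' processing notes, the build is mm10 and the tools include HISAT2, StringTie, Bowtie2 and RSEM, without versions or roles. Of the listed expected counts, 93.8% to 94.2% were whole within 0.005. Counts were rounded, and an absent row was read as 0. Depth was 211623 to 281990 counts. CPM were taken over the TMM-scaled totals of tested genes, 188150 to 247149, on which 3 counts, the limit for a count of 0 in a library, are 12.1 to 15.9 CPM.

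The 3 knockout and 2 wild type libraries were compared with edgeR 4.0.16 and limma 3.58.1 in R 4.3.3: filterByExpr (minimum count 10, minimum total 15), TMM scaling and robust quasi-likelihood fits of genotype, adjusted by Benjamini-Hochberg over 3710 genes at 0.05. The fit was tested on simulated data. Members got no test: 4 of 6 passed the filter (not Gzmb and Gzmf), and all 6 are given by their counts, with exact Poisson ratio intervals (scipy 1.17.1, Python 3.11.15). Alternatives were RLE and total-count scaling, no filter, DESeq2 1.42.0, limma voom, the replicate number as a block and each library left out.

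The members and the 14 gene lists were chosen with earlier results of these data known. Named genes were the members, Arntl, every listed neighbour in the cluster, the 8 genes nearest in pattern and, from each list, up to 2 per direction by adjusted p (if none passed, the 2 with the smallest p; if none was tested, the 2 with the highest counts). Other list genes, such as Prf1, Serpinb9, Serpinb2, Ikzf1, Runx3, Tbx21, Il2rb, Cd8a, Notch1, Tuba1a, Gzma and Pdgfra, and the 8 genes beside the cluster, fall outside it and were picked after values were seen, the last 8 by position. Transcripts (GENCODE M21) and promoter windows (RefSeq, GRCm38.p6) were aligned with Biopython 1.88. No source used here gives the strand setting, so overlapping genes on opposite strands cannot be told apart. Overlaps of at least 100 exon bases are mentioned above for some genes, not for all. Serpinb6a has 1587 exon bases opposite other genes, Ccr9 1954, Pdgfra 622 and Junb 173. Overlap was not measured for the 8 genes beside the cluster. Among these, the spans of Khnyn and Sdr39u1 overlap, as do those of Gmpr2 and Tinf2, and of Mphosph8 and Gm16973. Proteins were not analysed here.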

Additional observations from a re-analysis of the deposited data

How the results depend on the processing

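The summed family ratio, 0.501, lay between 0.488 and 0.529 with each library left out, at 0.499 and 0.507 with RLE and total-count scaling, and at 0.515 by the deposited FPKM. It moved to 0.142 without Gzme, the member with the highest count. All 6 members kept separate groups by FPKM as by CPM. Of the member ratios under other scalings or with a library left out, 42 of 42 kept their direction. The members were chosen from this comparison and their groups were already separate. Leaving out a library could hardly reverse a ratio, so that count is no support. Over all genes, 304 were higher and 302 lower; DESeq2 called 172 and 134 (the cause was not tested), and leaving out each library gave 144 to 323 higher and 146 to 287 lower, with the lowest counts without wild type library 1 (144 and 154) or 2 (153 and 146). With the replicate block, 229 were higher and 212 lower. Deviations of same-numbered libraries from their group means correlated at -0.0076 and 0.026. At this depth counting error weighs on the deviation of each gene, so that check cannot decide whether the numbers pair the libraries. No label says that they do. With no filter, 231 and 204 were called. In the 7 gene lists with any call, 27 of 77 counts of called genes under alternatives were lower by more than 1.5 times and 50 were not; in the 7 lists with no call, 3 of 77 gained one. Of the 8 genes nearest in pattern, 6 or 7 were shared under 3 other settings of that measure. Depth limits single members: a library with 0 counts can hide up to 15.9 CPM, and with 2 wild type libraries each weighs heavily.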
